A study of Drosophila melanogaster with 2 samples.

Results

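Of the promoter peaks of Mes4-GFP in whole Drosophila melanogaster embryos, 698 of 1721 (40.6%, 95% Wilson interval 38.3 to 42.9) had their summit within 500 bp of annotated transcription start sites (TSSs) of at least 2 different genes. These are called shared promoter peaks. They were found by placing the summit of each peak of the authors' optimal list for genome build dm6 against all TSSs of the Ensembl annotation, transposable elements left out. A further 1023 promoter peaks had 1 gene in the window, and 1486 peaks of that list had no gene start within 500 bp. Exactly 2 genes lay in the window at 649 of the shared peaks, and 3 or more at 49.

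The embryos were aged 0 to 16 h and of mixed sex. They came from a transgenic line that carries Mes4 with enhanced green fluorescent protein (GFP) at its C terminus, and chromatin was precipitated with an antibody against GFP. Both samples, biological replicates 3 and 4, belong to 1 group, so no condition is compared with another, and whole embryos mix all cell types. The 4 peak lists used here are 1 relaxed list of 30000 peaks per replicate, 1 such list from the pooled replicates, and the optimal list, which holds the strongest pooled peaks. By its label the pooled relaxed list holds background as well as peaks, so its weaker entries need not be binding sites. A shared control entered both replicates' lists and was not analysed here. The files hold no read counts, so sequencing depth is unknown, and every interval below covers the counting of peaks or genes only.

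Mes4 is a small protein with a histone fold, and is a different gene from the methyltransferase Mes-4. In compact genomes such as that of the fly, many genes lie head to head: their starts point away from each other and share the stretch of DNA between them. Such divergent pairs are common among genes used in most cells, for example those for ribosomal proteins. In tandem pairs both genes run the same way, and in convergent pairs each gene runs into the start of the other.

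Divergent pairs made up most shared peaks. Of the 649 peaks with exactly 2 genes, 578 (89.1%, 86.4 to 91.2) were divergent, 51 (7.86%, 6.03 to 10.2) tandem and 20 (3.08%, 2.004 to 4.71) convergent. Where both genes code for proteins, the counts were 537, 33 and 8. Most close pairs in the annotation are divergent too. Protein-coding pairs with most 5′ starts within 1000 bp number 2616 divergent, 800 tandem and 104 convergent. The share of divergent peaks alone thus shows no preference for an orientation. In 29 of the 33 tandem pairs at two-gene peaks the TSS nearest to the summit was the same base for both genes. These are genes annotated with a common start rather than neighbouring starts. Of the 49 peaks with 3 or more genes, 39 included at least 1 divergent pair.

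**Figure D1:**
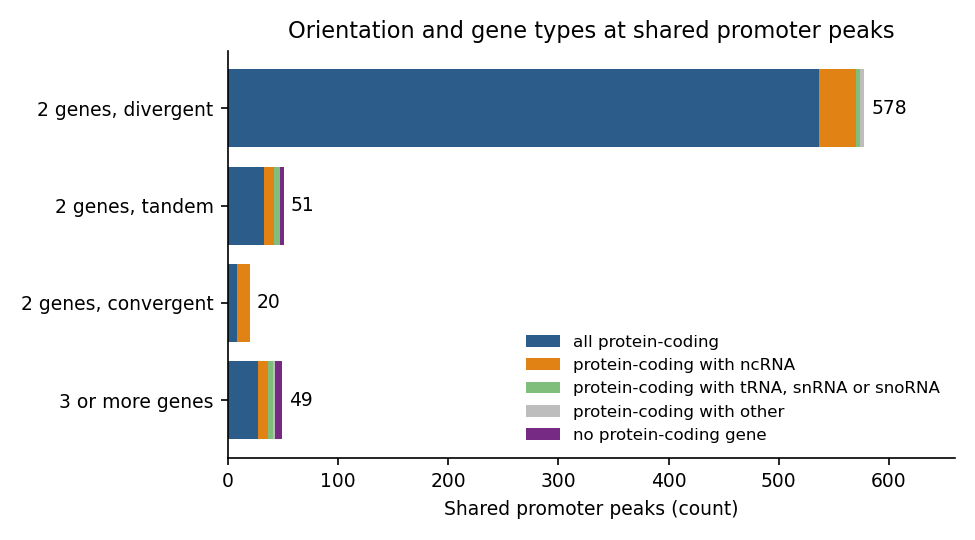
Number of shared promoter peaks (x axis, count) by the orientation of the genes (rows), with colours for the types of gene in the window. The divergent class holds 578 of the 698 peaks, and 537 of these 578 have protein-coding genes on both sides.

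All genes in the window coded for proteins at 605 of the 698 shared peaks. A protein-coding gene was paired with a noncoding RNA (ncRNA) gene at 63 peaks, of which 33 were divergent, 9 tandem, 12 convergent and 9 had 3 or more genes. Thus 12 of the 20 convergent peaks had an ncRNA gene as a partner. Of the 517 convergent pairs in the annotation with most 5′ starts within 1000 bp, only 104 are both protein-coding. The count is therefore not read as a trait of convergent peaks. At 14 peaks the partner was a tRNA, snRNA or snoRNA gene, at 6 it was of another type such as a pseudogene, and 10 peaks had no protein-coding gene in the window.

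The strongest divergent protein-coding peaks outside the second chromosome's right arm are shown first. Among the sequences printed, only that at RpL7 and Ripalpha reaches both starts. Each sequence covers 100 bp to each side of the summit, from the RefSeq Release 6 genome (dm6), written 5′ to 3′ on the plus strand. Capitals mark matches to the DNA replication-related element (DRE, TATCGATA), the core of Motif 1 (GGTCACAC) or Motif 7 (CANCNCTA) on either strand, all of which recur in fly core promoters. The first 4 are the strongest of this class.
Chro/Ssl1 (chr3L:22878788-22878988, plus strand): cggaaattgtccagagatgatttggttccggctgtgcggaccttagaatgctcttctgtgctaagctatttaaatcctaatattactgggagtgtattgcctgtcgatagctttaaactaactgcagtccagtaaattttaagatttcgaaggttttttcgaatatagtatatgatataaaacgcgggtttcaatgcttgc
RpL7/Ripalpha (chr2L:10200940-10201140, plus strand): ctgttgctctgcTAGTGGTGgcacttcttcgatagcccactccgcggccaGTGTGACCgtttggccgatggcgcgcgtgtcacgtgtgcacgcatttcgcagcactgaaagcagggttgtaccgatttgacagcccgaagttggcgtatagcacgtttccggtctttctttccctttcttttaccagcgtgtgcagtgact
Art3/mRpS10 (chr3R:15229428-15229628, plus strand): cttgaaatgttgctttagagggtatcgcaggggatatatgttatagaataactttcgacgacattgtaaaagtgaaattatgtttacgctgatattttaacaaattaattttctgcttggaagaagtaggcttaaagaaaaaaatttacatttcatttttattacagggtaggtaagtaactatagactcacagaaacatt
CenG1A/mRpS23 (chr2L:13835367-13835567, plus strand): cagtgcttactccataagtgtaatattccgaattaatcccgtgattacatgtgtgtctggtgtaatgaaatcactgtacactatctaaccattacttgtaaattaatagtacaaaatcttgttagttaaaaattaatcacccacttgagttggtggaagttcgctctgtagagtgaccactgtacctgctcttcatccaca

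Among these 4 windows, that between RpL7 and Ripalpha held a match to Motif 1 at base 51 and 1 to Motif 7 at base 13, counted from the 5′ end, and the other windows held no match to these 3 motifs. The next 4 are the strongest peaks of the same class that hold a DRE, which was more frequent at shared than at single-gene peaks.
Shc/Atat (chr3L:9426799-9426999, plus strand): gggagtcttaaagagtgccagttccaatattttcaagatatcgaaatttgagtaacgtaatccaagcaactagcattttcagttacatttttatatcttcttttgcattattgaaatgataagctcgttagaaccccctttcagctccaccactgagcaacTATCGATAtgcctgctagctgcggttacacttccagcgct
RpS25/CG4820 (chr3R:11216259-11216459, plus strand): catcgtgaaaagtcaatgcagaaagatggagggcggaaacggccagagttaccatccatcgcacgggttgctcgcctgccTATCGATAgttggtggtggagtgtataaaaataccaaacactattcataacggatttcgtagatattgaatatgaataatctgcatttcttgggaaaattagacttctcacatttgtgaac
Rack1/mts (chr2L:7827130-7827330, plus strand): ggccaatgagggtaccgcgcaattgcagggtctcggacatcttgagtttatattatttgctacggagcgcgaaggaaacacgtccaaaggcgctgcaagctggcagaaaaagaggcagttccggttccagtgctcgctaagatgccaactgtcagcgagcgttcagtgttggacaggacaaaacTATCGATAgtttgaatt
GCS2beta/CG5131 (chr2L:17484277-17484477, plus strand): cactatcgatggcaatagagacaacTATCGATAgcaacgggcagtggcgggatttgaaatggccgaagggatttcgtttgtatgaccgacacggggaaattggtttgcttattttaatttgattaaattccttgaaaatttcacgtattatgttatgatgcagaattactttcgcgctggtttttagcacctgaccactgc

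The DRE began at base 162 for Shc and Atat, 81 for RpS25 and CG4820, 185 for Rack1 and mts, and 26 for GCS2beta and CG5131. Its place against the summit, which is base 101, thus differed from peak to peak. Shc codes for an adaptor of receptor tyrosine kinases and Atat for an alpha-tubulin acetyltransferase. RpS25 codes for a small-subunit ribosomal protein, Rack1 for a scaffold protein of the small ribosomal subunit, mts for the catalytic subunit of protein phosphatase 2A, and GCS2beta for a subunit of the glucosidase II of the endoplasmic reticulum.

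The strongest shared peak ranked 5 in the optimal list, at chr3L:22878708-22879101. It lay at Chro, which codes for the chromodomain protein Chromator, and Ssl1, which codes for a subunit of the transcription factor TFIIH. Its authors' signal, a value that only ranks peaks within a list, was 746 in replicate 3 and 493 in replicate 4, and it ranked 6 in both. The starts were 105 bp apart, and the summit was 96 bp inside Chro and 201 bp from the start of Ssl1, so it did not lie between them.

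The peak at RpL7, a large-subunit ribosomal protein gene, and Ripalpha ranked 13 in the optimal list and in each replicate, with starts 30 bp apart. Art3, an arginine methyltransferase gene, and mRpS10, a gene for a protein of the mitochondrial ribosome, shared the peak of rank 14 (rank 12 in replicate 3, 14 in replicate 4). Here the summit lay between the starts, 120 bp from Art3 and 137 bp from mRpS10. CenG1A, a gene for a regulator of small GTPases, and mRpS23 shared rank 17 (22 and 15), with the summit 97 bp from CenG1A and 395 bp from mRpS23. These peaks differ in where the summit stands, from outside a narrow pair to the middle of a wide one.

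Further divergent peaks among the 12 strongest were CG9147 with Fbw5 (rank 23), Tcs5 with CHMP2B (rank 28), Pal1 with Pdrg1 (rank 37), RpLP0 with CG7130 (rank 40) and Shc with Atat (rank 47). CHMP2B codes for a subunit of the ESCRT-III membrane machinery and RpLP0 for a protein of the ribosomal stalk. The summit lay 107 bp from Tcs5 and 117 bp from CHMP2B, and 168 bp from Pal1 and 178 bp from Pdrg1, nearly midway in both. It lay 24 bp from RpLP0 but 312 bp from CG7130. Their ranks in replicates 3 and 4 were 20 and 28 for CG9147 with Fbw5, 28 and 26 for Tcs5 with CHMP2B, 38 and 37 for Pal1 with Pdrg1, 40 and 40 for RpLP0 with CG7130, and 48 and 51 for Shc with Atat. Every one of these peaks thus ranked high in both replicates. The optimal list ranks peaks pooled from the same replicates, so this is no independent check.

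The other 3 of the 12 strongest had another makeup. mRpL41, a mitochondrial ribosomal protein gene, and lncRNA:CR44463 ran the same way and shared rank 16 (16 and 21), with the summit 130 bp from mRpL41 and 448 bp from the ncRNA start. RpS27, sisRNA:CR46364 and Nup37 shared rank 20 (25 and 17). RpL14, Nelf-E and snoRNA:U49:66Da shared rank 25 (23 and 31). RpS27 and RpL14 code for ribosomal proteins, Nup37 for a protein of the nuclear pore, and Nelf-E for a subunit of the factor that holds paused RNA polymerase II. The summit lay 14 bp from RpS27 and 17 bp from RpL14, nearer to them than to their partners.

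The strongest tandem protein-coding peaks were CG8788 with CG44286 (rank 66), Sesn with CG46429 (rank 72), fray with CG7694 (rank 159) and Ufsp1 with Cyp6u1 (rank 315). In the first 3 the distance between the nearest starts was 0 bp, and the summit lay 222, 233 and 284 bp from the common start. Sesn codes for the stress-response protein Sestrin, fray for a kinase of the Ste20 family and Cyp6u1 for a cytochrome P450. Only Ufsp1 and Cyp6u1, 107 bp apart, had distinct starts among these 4, with ranks of 350 and 391 in replicates 3 and 4.

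The strongest convergent protein-coding peaks were Adck1 with CG4741 (rank 84), CG31808 with Cyt-c-d (rank 217), CG4658 with CG5846 (rank 625) and CG7220 with Daao1 (rank 1055). Cyt-c-d codes for a cytochrome c, the mobile electron carrier of mitochondria. Its peak ranked 157 in replicate 3 and 432 in replicate 4, and that of Adck1 ranked 82 and 91. The strongest convergent peaks thus ranked below the strongest divergent ones, in a class of 20 against 578 peaks.

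Among the other peaks with 3 or more genes, RpL13A with Dph4 and Spec2 ranked 77, and a peak at mir-9378 and 2 further annotated transcripts ranked 166. Dph4 and Spec2 have a common nearest start, 319 bp from the summit, while that of RpL13A was 30 bp away. The most crowded windows, named after their values were seen, held 10 and 5 genes. The window of 10 consisted of pieces of mod(mdg4), a gene whose transcripts are joined by trans-splicing and whose pieces the annotation lists as separate genes (rank 807). The window of 5 held NC2alpha, PIG-M and 3 genes with CG names (rank 524).

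Pairs with ncRNA genes included lncRNA:CR44149 with brwl (rank 59), asRNA:CR45928 with eIF6 (rank 99) and RpL22 with lncRNA:CR44966 (rank 101), all divergent. eIF6 is a factor of large-subunit assembly and RpL22 a large-subunit protein. The summit was nearer to the ncRNA start at the first of these pairs (45 against 150 bp) and at eIF6 (93 against 122 bp), and nearer to RpL22 at the last (30 against 128 bp). Of 3261 ncRNA genes 154 had a peak (4.72%), and 80 of these 154 (51.9%) were at shared peaks, against 60.9% of the protein-coding genes with a peak. Some of the 80 lie together: mir-9378 and 2 further annotated transcripts count as 3 genes at the peak of rank 166.

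With small RNA genes, tRNA:Tyr-GTA-1-8 and CG8036 shared rank 197, RpS12 with snoRNA:Me28S-A774b rank 452, RpS29 with snoRNA:Psi18S-1275 rank 492, and CG30122 with tRNA:Trp-CCA-2-2 rank 642. The summit lay 0 bp from the start of RpS12 and 26 bp from that of RpS29, and over 200 bp from the snoRNA starts (228 and 330 bp). Where no protein-coding gene was in the window, the strongest pairs were snoRNA:185 with tRNA:Glu-TTC-1-5 (rank 1023), snRNA:U6:96Ac with snRNA:U6:96Ab (rank 1290), Uhg3 with snoRNA:Me28S-C2645a (rank 2324) and snRNA:U1:21D with scaRNA:MeU1:95C-A24 (rank 2549). All 4 of these were tandem, and U6 genes belong to a family of near-identical copies whose reads cannot be placed with certainty. Uhg3 is a host gene of snoRNAs.

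The distance between divergent starts had a median of 268.5 bp (quartiles 172.5 and 355.5, range 6 to 872). The nearest start lay a median of 70 bp from the summit and the start of the second gene 194.5 bp. The narrowest protein-coding pairs were CG3032 with CG4593 (6 bp, rank 2391), CG17260 with SerRS (8 bp, rank 797) and MED6 with Naa80 (19 bp, rank 1758). SerRS is the seryl-tRNA synthetase gene and MED6 codes for a subunit of Mediator. The widest were CG2246 with CG31021 (717 bp, rank 1794), app with CG32100 (687 bp, rank 805) and CG4596 with Fdh (657 bp, rank 2708). None of these 6 extremes was among the strongest peaks.

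At most divergent peaks the summit stood between the starts. This was so at 459 of 578 (79.4%, 75.9 to 82.5), and at the other 119 the summit lay inside the nearest gene. The summits of replicate 3 matched to the same peaks stood between the starts at 79.2% (458 of 578) and those of replicate 4 at 78.0% (450 of 577), so both replicates gave almost the same share. At single-gene promoter peaks, 73.5% of summits (70.7 to 76.1) lay upstream of the TSS or on it. The summit was within 50 bp of the midpoint of the starts at 253 divergent peaks (43.8%, 39.8 to 47.8).

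For starts over 500 bp apart, the rule that both lie within 500 bp of the summit already places the summit between them, as at 51 of 51 such peaks, so these say nothing of position. For starts up to 500 bp apart the share was 77.4% (408 of 527, 73.7 to 80.8). A wider gap also offers more positions between the starts, and the rule leaves fewer outside it. With starts up to 100 bp apart the share was 37.0% (30 of 81), from there to 200 bp 68.6% (59 of 86), and to 300 bp 88.4% (167 of 189). It was 89.9% (107 of 119) up to 400 bp. At starts up to 100 bp apart, most summits thus lay outside the pair.

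**Figure D2:**
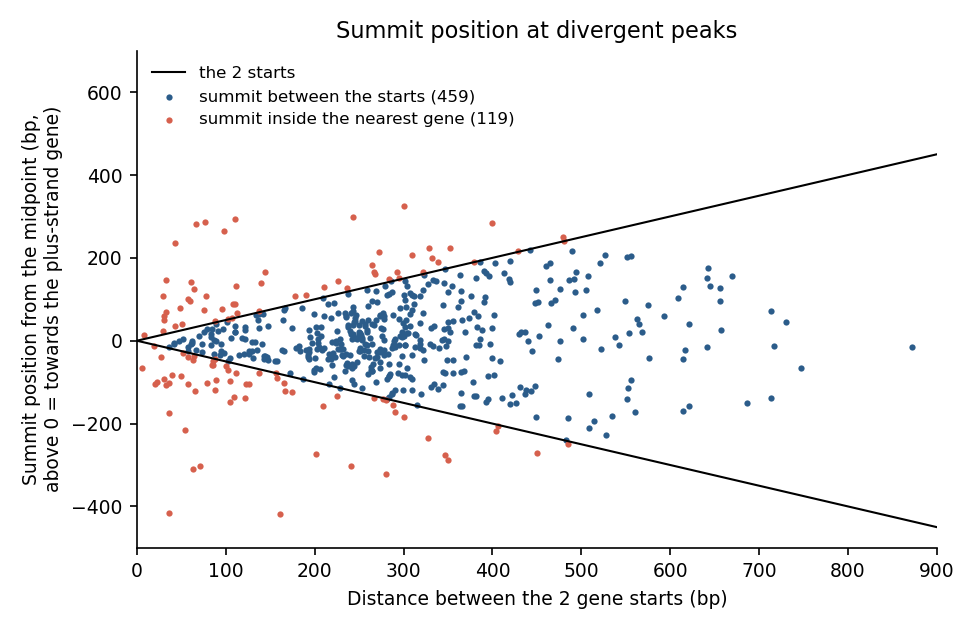
Position of the summit from the midpoint of both starts (y axis, bp, above 0 towards the plus-strand gene) against the distance between the starts (x axis, bp) at the 578 divergent peaks, each a point. The black lines are the starts themselves: 459 points lie between them, and most of the 119 outside lie at short distances.

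Which gene was nearer to the summit was mostly the same in both replicates. The nearest gene of a divergent peak agreed for 488 of 577 peaks (84.6%, 81.4 to 87.3). Where the distances of the starts differed by over 100 bp, it agreed for 270 of 287 (94.1%), and otherwise for 218 of 290 (75.2%). At the latter peaks the summit does not assign the peak to a gene reliably.

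The median rank in the optimal list was 1758 for starts up to 100 bp apart, 1727.5 up to 200 bp, 1498 up to 300 bp, 1653 up to 400 bp, 1541 up to 600 bp and 1093.5 in the 22 wider pairs. The widest class thus had the strongest median, on 22 peaks, of which 15 (68.2%) ranked above the median of all optimal peaks, against 46.9% (38 of 81) in the narrowest class. Median GC content around the summit was 40.8% in the narrowest class and 34.3% in the widest.

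Within the optimal list, which holds only the strongest pooled peaks, shared and single-gene peaks had similar ranks. The median authors' signal was 130 at shared and 129 at single-gene peaks in the optimal list, 77.0 and 78.9 in replicate 3, and 54.5 and 54.5 in replicate 4. Of shared peaks 51.3% (358 of 698) ranked above the median of all optimal peaks, against 51.0% (522 of 1023) of single-gene peaks. The difference was 0.263 percentage points, with a 95% Newcombe interval from -4.54 to 5.06. Of the 100 strongest peaks 30 were shared, 34 had 1 gene and 36 had no gene start, while 21.8% of the whole list was shared. These counts are 4.30%, 3.32% and 2.42% of their classes. Shared peaks differed from single-gene peaks by 0.974 points (-0.833 to 2.98) and from peaks without a gene start by 1.88 points (0.310 to 3.77). Entry into the optimal list did differ: it held 26.5% (24.8 to 28.2) of the shared and 14.1% (13.3 to 14.9) of the single-gene pooled relaxed peaks.

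Signal also differed little between orientations. Its median was 129 at divergent, 134 at tandem, 138 at convergent peaks and 154 at peaks with 3 or more genes. The quartiles of the last class, 110 and 218, overlapped those of divergent peaks, 101 and 192. No orientation stood apart from the others.

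Shared peaks were found again in each replicate about as often as single-gene peaks. A summit of the replicate's own list, cut to as many peaks as the optimal list, lay within 200 bp in both replicates for 74.8% of shared and 72.9% of single-gene peaks (difference 1.86 points, -2.40 to 6.03). In replicate 3 the shares were 88.4% and 89.5%. In replicate 4 they were 85.7% and 81.4%, a difference of 4.25 points (0.650 to 7.71). Replicate 3 did not show that difference.

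Individual shared peaks could still differ between replicates. In the full relaxed lists, 697 of 698 had a summit in both, and the exception was CG7208 with Arp5 (rank 1525 in replicate 3). The lowest ranks were 21105 in replicate 3, at ckn with aPKC, and 27111 in replicate 4, at dom with CG30394. dom with CG30394 ranked 1418 in replicate 3 and ckn with aPKC ranked 4291 in replicate 4. These peaks were named after their values were seen. Each rank is that of the replicate's nearest summit within 200 bp, which need not be the strongest there. How far these peaks rest on 1 replicate was therefore not tested.

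Cytoplasmic ribosomal protein genes, which build the ribosome's large and small subunits, mostly lay nearest to the summit at their shared peaks. A peak was found at 75 of 86 of them, against 15.1% of all protein-coding genes. Of these 75, 40 (53.3%) were at shared peaks, against 60.9% (1280 of 2101) of all protein-coding genes with a peak. At the strongest shared peak of each gene no other start was nearer to the summit for 38 of these 40, while over all protein-coding genes at shared peaks this held for 52.5% (672 of 1280).

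The 35 shared peaks that pair a ribosomal protein gene with 1 other protein-coding gene show this in distances. The ribosomal protein gene's start lay a median of 36 bp from the summit (quartiles 17.5 and 73) and the partner's 233 bp (109 and 314.5). The ribosomal protein gene was nearer at 30 of 35 (85.7%, 70.6 to 93.7), and 34 of 35 were divergent. RpL18 started 2 bp and Neos 279 bp from the summit of rank 525, and RpS18 3 bp and plu 298 bp from that of rank 324. At rank 177, RpL13 started 5 bp away and Dref, the gene for the factor that binds the DRE, 96 bp away.

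At 4 of the other 5 peaks the partner was nearer, and at RpS27A with Ip259 both genes have the same start. RpS20 lay 180 bp and CG17271 153 bp from the summit of rank 207. The peaks at RpL34b with CG8132 (rank 1498) and RpL18 with Neos (rank 2453) each accompanied a stronger peak of the same pair (ranks 205 and 525), whose summit lay nearer to the ribosomal protein gene. Such pairs carry peaks near both starts.

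At shared peaks of mitochondrial ribosomal protein genes the partner's start was mostly the nearer one. Of 73 genes 18 had a peak (24.7%, against 15.1% of all protein-coding genes). Of these, 17 (94.4%) were at shared peaks, against 60.9% of all protein-coding genes with a peak. A divergent neighbour was found for 79.5% of mitochondrial and 65.1% of cytoplasmic ribosomal protein genes, against 38.8% of all protein-coding genes. The part of such neighbours in these counts was not tested. In the 16 divergent pairs with 1 other protein-coding gene, the mitochondrial ribosomal protein gene was nearer at 2 (12.5%, 3.498 to 36.0), mRpL23 with CG9004 (59 against 109 bp) and mRpL34 with Dg (133 against 251 bp). Its start lay a median of 138 bp from the summit and the partner's 77.5 bp. mRpL21 lay 272 bp and rept, the gene for the helicase Reptin, 7 bp from the summit, and mRpS2 lay 203 bp and Mon1 19 bp. At mRpL32 with qless (139 against 125 bp) and at other pairs of both ribosomal lists, the distances differed by 100 bp or less. Among all divergent peaks of that kind the nearest gene agreed between replicates at 75.2%, so which gene is nearer is less certain there. The intervals of the shares of the cytoplasmic and mitochondrial lists do not overlap, though both lists are small and mRpL11 with HtrA2 gives 2 of the 16 peaks. Among the other lists, the lowest share was 28.6% (2 of 7, 8.22 to 64.1), for insulator and architectural protein genes. The highest was 72.7% (8 of 11, 43.4 to 90.3), for oxidative phosphorylation genes. These intervals overlap those of the mitochondrial and the cytoplasmic list, respectively, so neither arrangement was shown to be particular to its list. All these shares cover pairs with 1 other protein-coding gene and count a tie as not nearer. At the strongest shared peak of each insulator and architectural protein gene, no other start was nearer for 5 of 8.

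**Figure D3:**
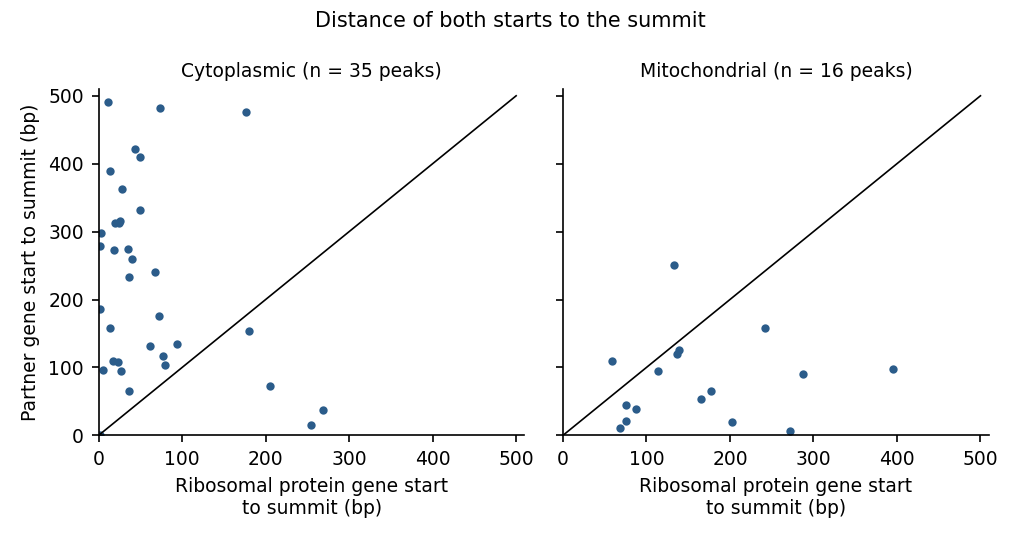
Distance from the summit to the start of the partner gene (y axis, bp) against that to the start of the ribosomal protein gene (x axis, bp), for 35 peaks at cytoplasmic (left) and 16 at mitochondrial (right) ribosomal protein genes. Points above the line have the ribosomal protein gene nearer: 30 of 35 on the left and 2 of 16 on the right.

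In the other lists of widely used genes most members with a peak were at shared peaks. This held for 12 of 13 oxidative phosphorylation genes, 6 of 7 proteasome genes, 10 of 13 genes of Mediator and the general transcription factors, 9 of 9 aminoacyl-tRNA synthetase genes, 6 of 6 splicing factor genes, 4 of 4 nucleoporin genes and 8 of 10 insulator and architectural protein genes. Of the 19 translation factor genes with a peak, 9 were at shared peaks. Against 60.9% over all protein-coding genes with a peak, the shares are high in most of these lists, but each rests on 19 genes or fewer. Any peak was found at 14.9% of oxidative phosphorylation and 14.6% of proteasome genes, near the 15.1% of all protein-coding genes. This figure was 19.0% for nucleoporin, 22.2% for splicing factor and 26.5% for Mediator and general transcription factor genes. For aminoacyl-tRNA synthetase, translation factor and insulator and architectural protein genes it was 27.3%, 35.8% and 66.7%. Members of these lists also have divergent neighbours more often than the 38.8% of all protein-coding genes, from 24 of 48 proteasome, 50.9% of translation factor and 52.9% of oxidative phosphorylation genes to 85.7% of nucleoporin and 92.6% of splicing factor genes. The share was 66.7% for insulator and architectural protein, 69.7% for aminoacyl-tRNA synthetase and 73.5% for Mediator and general transcription factor genes. The part of this in the shared counts was not tested.

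The strongest shared peaks of these lists were as follows. For oxidative phosphorylation they were ND-ASHI (rank 518) and ND-MWFE (rank 527), of complex I, and COX5A (rank 600), of cytochrome c oxidase. For the proteasome they were Rpn5 (rank 549), Rpn3 (rank 683) and Rpn6 (rank 1514), all of the regulatory particle. For translation factors they were eIF6 (rank 99), eIF1 (rank 194) and eIF3h (rank 939). None of these but eIF6 ranked among the 100 strongest.

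MED30 (rank 406), MED27 (rank 500) and MED4 (rank 817), all Mediator subunits, led their list, and each lay farther from the summit than its partner. IleRS (rank 708), SerRS (rank 797) and GluProRS (rank 1215) led the aminoacyl-tRNA synthetases. Sf3b6 (rank 1165), Sf3b1 (rank 1689) and Prp31 (rank 1886) led the splicing factors, and Nup37 (rank 20), Nup98-96 (rank 320) and Nup160 (rank 963) the nucleoporins. Chro (rank 5), Dref (rank 177) and Cp190 (rank 343), the last a cofactor of insulator proteins, led the architectural proteins. These named ranks, the highest 3 of each list, ran from 5 to 1886.

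No shared peak was found at the 110 cuticle protein genes or the 8 Hox genes, and neither list had any promoter peak in the optimal list. Over all protein-coding genes 15.1% had a peak and 9.18% were at a shared one, so 0 of 8 Hox genes is near that background. A divergent neighbour was found for 12.7% of the cuticle protein genes and 0 of 8 Hox genes. Both lists serve specific tissues or body regions rather than all cells. A peak was found at 11 of 290 tRNA (3.79%), 18 of 269 snoRNA (6.69%) and 6 of 32 snRNA genes (18.75%), beside 15.1% of protein-coding genes. Of these, 9 of 11 tRNA, 16 of 18 snoRNA and 3 of 6 snRNA genes were at shared peaks, beside 60.9% of protein-coding genes with a peak. The snoRNA start was the nearest to the summit for 2 of 16. The strongest for tRNA genes after tRNA:Tyr-GTA-1-8 was tRNA:Phe-GAA-1-2 (rank 227), and for snoRNA genes after snoRNA:U49:66Da were snoRNA:Psi28S-2949 and snoRNA:Or-aca5 (rank 176).

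Sequence around the summit differed between shared and single-gene peaks. A DRE lay within 100 bp of the summit, on either strand, at 86 of 698 shared peaks (12.3%, 10.1 to 14.97) and 55 of 1023 single-gene peaks (5.38%, 4.15 to 6.93). The difference was 6.94 points (4.22 to 9.86). The DRE is bound by the factor DREF and is known from genes of replication and growth. Its share was 13.3% at divergent peaks, 4.55% over all optimal peaks and 0.336% at peaks away from gene starts. In the strongest peaks of each replicate alone the difference was 7.06 points in replicate 4 and 5.49 points in replicate 3.

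At the 77 divergent peaks with a DRE, the element itself mostly lay between the starts, at 63 of 77 (81.8%, 71.8 to 88.8). Its centre was a median of 29.5 bp from the nearest start and 50.5 bp from the summit. By the distance between the starts, the share with a DRE was 13.6% up to 100 bp, 20.9% up to 200 bp, 13.8% up to 300 bp, 11.8% up to 400 bp, 8.64% up to 600 bp and 4.55% (1 of 22) in wider pairs. The intervals of neighbouring classes overlap, for example 13.7 to 30.7 and 9.56 to 19.4 for the classes that end at 200 and 300 bp.

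Other matches also differed. Motif 1, which is bound by the factor M1BP, was found at 8.02% of shared and 3.42% of single-gene peaks (difference 4.60 points, 2.39 to 7.05). Motif 7 was found at 20.9% and 13.4% (7.52 points, 3.91 to 11.2). The E-box CAGCTG was found at 17.6% and 11.3% (6.28 points, 2.91 to 9.78), and the TATA sequence TATAAA at 34.1% and 26.1% (7.998 points, 3.59 to 12.4). At least 1 of DRE, Motif 1 and Motif 7 was present at 240 shared peaks (34.4%) against 20.04% of single-gene and 16.8% of all optimal peaks. These elements were thus more frequent at shared peaks, but most shared peaks held none of the 3.

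GAGAG, the core of the element bound by GAGA factor, went the other way. It was found at 16.9% of shared (118 of 698) and 30.3% of single-gene peaks (310 of 1023), a difference of -13.4 points (-17.3 to -9.37). The initiator core TCAGT was found at 28.8% and 34.0% (-5.22 points, -9.61 to -0.739). For the cores of Motif 6 (GTATTTT) and the GATA element (AGATAA) and for CCAAT, the interval of the difference included 0. It ran from -0.402 to 6.12 points for Motif 6, from -0.105 to 6.10 for the GATA element and from -0.164 to 8.96 for CCAAT, so differences of several points are not excluded by these counts.

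**Figure D4:**
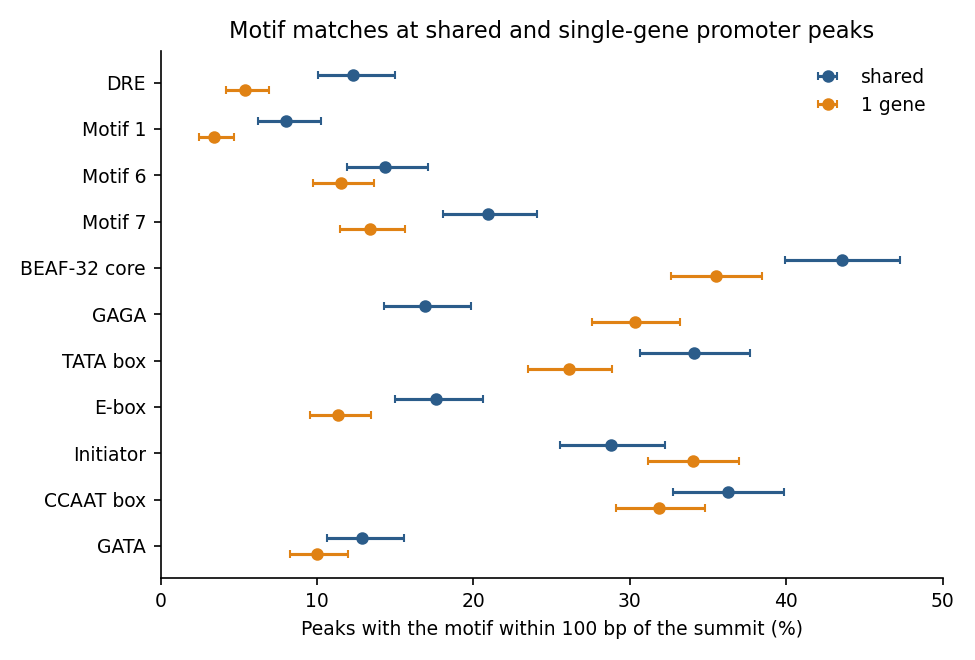
Share of peaks with each of the 11 motifs within 100 bp of the summit (x axis, percent; points with 95% Wilson intervals) at the 698 shared and the 1023 single-gene promoter peaks. DRE, Motif 1, Motif 7, BEAF-32 core, TATA box and E-box are higher at shared peaks, while GAGA, at 16.9% against 30.3%, and the initiator are lower.

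The nearest start lay a median of 73 bp (quartiles 33 and 127) from shared summits and 132 bp (57 and 254) from single-gene summits, a difference that the rule favours, since it takes the nearest of more starts. Shared summits also lay in sequence of lower GC content, a median of 36.3% against 39.3%. Among peaks with the summit within 100 bp of the nearest TSS, a comparison added after seeing the data, the DRE was at 16.0% of 456 shared and 9.25% of 411 single-gene peaks (difference 6.76 points, 2.33 to 11.1). GAGAG was at 15.4% (12.3 to 18.9) and 28.0% (23.9 to 32.5), and TATAAA at 28.9% (24.97 to 33.3) and 19.5% (15.9 to 23.6). Motif 1 was at 9.87% (7.46 to 12.95) and 7.54% (5.36 to 10.5), Motif 7 at 26.1% (22.3 to 30.3) and 21.7% (17.9 to 25.9), and the E-box at 20.8% (17.4 to 24.8) and 15.3% (12.2 to 19.1). For Motif 1, Motif 7 and the E-box these intervals overlap. Among peaks with GC content from 30 to 45%, also added after seeing the data, the DRE was at 12.3% and 5.29% (difference 6.98 points, 3.72 to 10.5), and GAGAG at 14.9% and 28.5%. Motif 1 was there at 8.18% and 2.35%, Motif 7 at 23.1% and 12.9%, and the E-box at 18.4% and 9.99%, each with intervals that do not overlap. TATAAA was at 36.2% (32.1 to 40.5) and 30.4% (27.1 to 33.95), with intervals that overlap.

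CGATA, the core recognised by the insulator protein BEAF-32, is part of the DRE, so its matches include every DRE. It was found at 43.6% of shared and 35.5% of single-gene peaks (8.07 points, 3.37 to 12.8). Leaving out peaks with a DRE, the shares with CGATA were 35.6% (218 of 612, 31.9 to 39.5) and 31.8% (308 of 968, 28.96 to 34.8), whose intervals overlap. Among summits within 100 bp of a start, CGATA was at 47.6% (43.0 to 52.2) and 48.9% (44.1 to 53.7). Among peaks with GC content from 30 to 45% it was at 43.6% (39.2 to 47.99) and 35.2% (31.7 to 38.9), whose intervals do not overlap. The difference in CGATA thus depended on which peaks were compared.

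The same motifs were counted at the starts themselves, within 100 bp of the most 5′ TSS of all 13945 protein-coding genes. The DRE was at 7.84% of them. It was at 14.2% (12.4 to 16.1) of starts with a divergent neighbour and a peak, and at 11.8% (10.9 to 12.9) of starts with a divergent neighbour and no peak. At starts with no neighbour it was at 7.08% with and 4.81% without a peak. The share of the DRE thus differed more between kinds of neighbour than between starts with and without a peak.

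Motif 7 differed along both lines. It was at 25.4% (23.2 to 27.8) of divergent starts with a peak and 15.9% (14.8 to 17.02) of those without, and at 13.6% and 7.93% of starts with no neighbour. GAGAG was at 17.9% and 17.7% of divergent starts with and without a peak, but at 34.1% (30.3 to 38.2) and 25.2% (24.1 to 26.2) of starts with no neighbour. Motif 1 was at 10.8% and 10.6% of divergent starts, and at 9.62% (7.43 to 12.4) and 3.87% (3.43 to 4.36) of starts with no neighbour. TATAAA was at fewer divergent starts with a peak, 24.7% (22.5 to 27.05), than without, 29.5% (28.2 to 31.0). For GAGAG and Motif 1 the shares with and without a peak were thus close at divergent starts and apart at starts with no neighbour.

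Over all protein-coding starts the share was 6.76% for Motif 1, 12.2% for Motif 7, 11.5% for Motif 6, 39.4% for the BEAF-32 core and 22.5% for the GAGA core. It was 29.2% for the TATA sequence, 13.8% for the E-box, 42.8% for the initiator core, 34.5% for the CCAAT box and 10.8% for the GATA element. The initiator core was at 30.5% of divergent starts with a peak and 39.1% of those without, and the E-box at 20.5% and 16.1%. These 2 motifs thus went in opposite directions.

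Genes with a divergent neighbour carried a peak more often than other genes. A summit lay within 500 bp of a TSS for 1392 of 5416 protein-coding genes whose start has a divergent neighbour within 1000 bp (25.7%). The share was 12.1% (158 of 1310) for genes with tandem or convergent neighbours only and 7.63% (551 of 7219) for genes with none. The difference between the first and the last was 18.1 points (16.8 to 19.4), with 17.3 points in replicate 3 and 17.9 points in replicate 4. A peak between 2 starts counts for both genes, and when each peak was counted for its nearest gene only, the shares were 15.5% and 7.63% and the difference 7.86 points (6.72 to 9.01).

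The same order was present among all pooled relaxed peaks, most of which are not in the optimal list and which can include background. A relaxed summit lay near 74.7% of genes with a divergent neighbour and 40.9% of genes with none. Of all pooled relaxed peaks 10.7% were in the optimal list, against 29.2% (578 of 1977) of divergent, 20.2% of tandem, 12.6% of convergent and 14.1% (1023 of 7277) of single-gene relaxed peaks. For relaxed peaks without a gene start the share was 7.40%. Divergent relaxed peaks thus reached the optimal list more often than the other classes of relaxed peaks.

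Weaker entries of the pooled relaxed list, those outside the optimal list, were less often shared, and their summits stood less often between divergent starts. They can include background, and its part in these shares was not tested. Among the 8193 of them at promoters 23.7% (22.8 to 24.6) were shared, and among their 1740 two-gene peaks 80.4% (78.5 to 82.2) were divergent. Their summit stood between the starts at 784 of 1399 divergent peaks (56.0%, 53.4 to 58.6), against 79.4% in the optimal list. All 3 shares lay below those of the optimal list by more than their intervals.

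Of the 2616 divergent pairs of protein-coding genes in the annotation whose most 5′ starts lie within 1000 bp, 586 (22.4%, 20.8 to 24.0) had 1 summit within 500 bp of both genes. For tandem pairs it was 91 of 800 (11.4%, 9.36 to 13.8), of which 87 have the same most 5′ start, and for convergent pairs 21 of 104 (20.2%, 13.6 to 28.9). Among the 360 tandem pairs with the same most 5′ start, 24.2% had a shared peak. Divergent, convergent and common-start pairs thus did not differ beyond their intervals.

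By distance, the share of divergent pairs with a shared peak was 25.2% up to 100 bp, 27.1% up to 200 bp, 35.2% (31.2 to 39.3) up to 300 bp, 30.7% up to 400 bp, 14.3% up to 600 bp and 2.40% up to 1000 bp. The decrease at wide pairs is partly fixed by the rule, since a summit must lie within 500 bp of both. A summit within 500 bp of at least 1 of the starts was found for 126 of 420 pairs in the narrowest class. In order of rising distance, the other classes had 29.9%, 38.4% (34.3 to 42.6), 36.8%, 25.6% (21.8 to 29.8) and 26.4% (22.6 to 30.6). By this count too, the class between 200 and 300 bp was the highest. Its interval lay above those of the classes over 400 bp and overlapped the others.

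**Figure D5:**
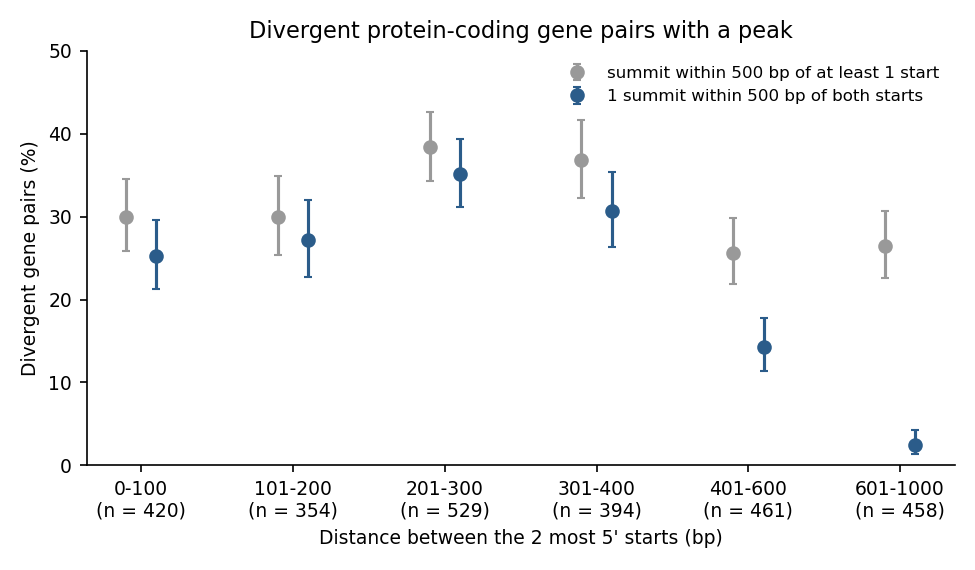
Share of divergent protein-coding gene pairs (y axis, percent, with 95% Wilson intervals) with a summit near both starts (blue) or near at least 1 start (grey), by the distance between the most 5′ starts (x axis, bp). Both shares are highest for pairs 200 to 300 bp apart, at 35.2% and 38.4%, and only the blue one nears 0 in the widest class.

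Along the chromosome arms, shared peaks made up 39.3% of promoter peaks on 2L, 40.6% on 2R, 42.7% on 3L, 44.4% (39.8 to 49.1) on 3R and 33.6% (89 of 265, 28.2 to 39.5) on X, with 1 of 5 on chromosome 4. The share on X was the lowest of the long arms, and its interval lay below that of 3R and overlapped those of the others. The share of protein-coding genes with a divergent neighbour was 37.8% (35.8 to 39.8) on X and 38.7% (37.1 to 40.3) on 3R.

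The 698 peaks are not 698 separate loci. They fell at 667 different sets of genes, and 62 peaks had the same set as another peak. They touched 1393 genes, 1280 of them protein-coding, and 40 of the genes also had a single-gene peak. Genes of 2 of the lists met at 3 peaks, RpS27 with Nup37, RpL13 with Dref, and RpL28 with eIF1.

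At the limit of the window, the second gene lay 499 bp from the summit at velo with Sbds (rank 2925), 498 bp at CG10802 with CG10804 (rank 1077) and 497 bp at CRAT with CG42564 (rank 2349). Just outside, it lay 503 bp away at tank with CG12194 (rank 42) and 505 bp at Naam with tRNA:Val-CAC-2-5 (rank 1255). A few bp thus decide whether such peaks count as shared, and the strong peak at tank is counted as single-gene.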

How the data were processed

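Mes4-GFP chromatin immunoprecipitation was sequenced in 2 biological replicates of 1 group. Sonication gave fragments of 200 to 800 bp, per the labels. The authors deposited narrowPeak lists of peaks for the builds dm6 and dm3, of which the dm6 lists were used here: relaxed lists of 30000 peaks for each replicate and for the pooled replicates, and an optimal list of 3207 peaks made by the irreproducible discovery rate procedure. The deposited signal value of each peak was used only to rank peaks within a list. The other deposited number used was the summit's offset within the peak, an other value in bp. For the aligner, the caller, their versions and the thresholds, the entry is: not given in the sources used here. The optimal list is exactly the 3207 strongest pooled peaks.

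Summits were placed against 23581 distinct TSSs of 18164 genes of Ensembl release 115 (chromosome arms X, 2L, 2R, 3L, 3R and 4), transposable elements left out, with Python 3.11.15, numpy 2.4.6 and pandas 2.3.3. Each gene was placed by its TSS nearest to the summit: opposite strands with the minus-strand start at or left of the plus-strand start are divergent, the reverse convergent, the same strand tandem. Coordinates are 1-based. Replicate peaks were matched by summits within 200 bp, from the 3207 strongest of each replicate. Motifs were searched on both strands within 100 bp of the summit in the RefSeq Release 6 sequence. Ribosomal and other gene lists were matched by symbol. A tie in distance counts as nearest for both genes, except in the pairs with 1 other protein-coding gene, where it counts as not nearer.

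Shares carry 95% Wilson intervals and differences 95% Newcombe intervals. No p-value was computed, since peaks of 2 replicates are not replicates of a condition. Whether intervals of shares overlap is a description and was not tested. The steps were tested on simulated data. The members, gene lists, motifs and named genes (the strongest peaks of each class and list, the narrowest and widest pairs, and those at the window's limit) were chosen with earlier results of these data known. The dm3 lists were not used here. Some members that the rule for named genes selects are not reported here.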

Additional observations from a re-analysis of the deposited data

How the results depend on the processing

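Of 57 alternative values, 42 stayed within the 95% interval of the reported value and 15 moved outside it. The sign changed in 7, all of them for differences whose reported interval includes 0: 3 for strength (-1.25 points with a 1000 bp window, -1.42 with protein-coding genes only, -0.0633 with merged peaks) and 4 for peaks matched in both replicates (-1.31, -0.307, -0.455 and -0.00378 points with a 1000 bp window, protein-coding genes only, the peaks above the median signal and a 100 bp match). The share of promoter peaks that are shared was 31.7% with a 250 bp window, 46.6% with 1000 bp, 43.9% with only the most 5′ TSS of each gene and 37.9% with protein-coding genes only. The divergent share of two-gene peaks was 86.4% with a 1000 bp window and 93.03% with protein-coding genes only. The share of divergent summits between the starts was 73.7% with a 1000 bp window and 73.1% with the most 5′ TSS, and 75.9% to 78.9% when either replicate was left out. The difference in DRE was 3.57 points within 50 bp of the summit and 11.7 points within 200 bp. The difference between genes with a divergent neighbour and with none was 9.80 points with only the optimal peaks above the median signal, 20.1 points with neighbours within 500 bp, 15.6 points with summits within 250 bp and 7.86 points when a peak counts for its nearest gene only. The last follows from counting a peak for 1 gene and the first from using fewer peaks; for the rest the cause was not tested. Leaving out 1 replicate gave 39.5% to 40.5% for the shared share, 87.9% to 90.4% for the divergent share, 0.350 to 1.65 points for strength, 5.49 to 7.06 points for the DRE and 17.3 to 17.9 points for neighbours. Merging overlapping peaks (3110 remained) moved no value outside its interval. No paired analysis was possible because both replicates belong to 1 group.

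The files hold no read counts, so precision from depth is unknown, and the intervals cover the counting of peaks or genes only. Peaks of a common gene set, and genes of a common peak, are not independent, so the intervals are too narrow by an unknown amount. The annotation decides which starts exist, and no untagged control was analysed here.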
